A study of Drosophila melanogaster with 12 samples.

Results

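The pupal wing at 44 h after puparium formation (APF) was compared with the pupal wing at 24 h APF in the 2 replicate libraries of each timepoint, 4 of the 12 RNAseq libraries of a wing time course in *Drosophila melanogaster*. The libraries were chosen by their sample titles, and the 2 libraries of 36 h APF were used to set aside genes whose level peaked or dipped between these timepoints. All wings came from animals with the strain label w1118/y,w, hs-FLP; + ; +, with no treatment or further genotype in the labels, so that the timepoints differed in age alone as far as the labels say. The study's methods give pools of hand-dissected wings, staging at 25°C and 2 independent replicates for each timepoint. Adjusted p-values therefore set a change against the spread between pools of wings, estimated jointly over the 12 libraries. With 2 pools at each timepoint the spread at 24 h or at 44 h alone is known only roughly.

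By 24 h APF the wing epithelium is a flat sheet in 2 layers that has completed or is completing its last divisions, and by 44 h APF its cells are postmitotic and are building the adult wing. During this period each epidermal cell raises an actin-rich hair, secretes the outer envelope and then the chitin-bearing layers of the adult cuticle, and becomes attached to the opposite layer by integrins. The steroid hormone ecdysone acts through its receptor and a cascade of transcription factors, whose members are switched on and off in a fixed order through metamorphosis. The comparison addresses which gene expression changes of this postmitotic period were still in place at its end.

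Reads on genes numbered 6025128 and 6900002 at 44 h and 6719725 and 1659208 at 24 h, so the second replicate of 24 h was the shallowest library of the series. Counts were scaled by the TMM method and are given as CPM, reads scaled to a common library size. A floor of 3 counts was 0.712 and 0.607 CPM at 44 h, and 0.386 and 1.53 CPM at 24 h. The 10 most abundant genes took 25.9 and 25.2% of the reads at 44 h, against 14.9 and 12.1% at 24 h, and the TMM factors were 0.70 and 0.72 at 44 h, against 1.16 and 1.18 at 24 h. In such bulk samples fewer cells of a type and less RNA per cell cannot be told apart. All 7 markers of the wing epidermis (*nub*, *vg*, *sd*, *ap*, *shg*, *Egfr* and *bs*) were detected in all 4 libraries, with a summed level of 1466 and 1307 CPM at 44 h, against 2684 and 2199.6 CPM at 24 h. The markers did not move together. *nub*, *vg*, *sd*, *ap* and *bs* were lower at 44 h, and *sd* made up the largest part of the 24 h sum. Mean levels of *Egfr* (313 and 248 CPM at 44 h, against 183 and 107 at 24 h) and *shg* (363 and 267 CPM, against 286 and 216) were higher at 44 h.

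Replicate libraries did not carry the most strongly rising genes equally. For 13 genes with at least 500 CPM at 44 h and under 1% of that level at both 18 h and 36 h, the median level was 0.408% of the 44 h level in replicate 2 of 24 h, against 0.0259% in replicate 1 of 24 h. Replicate 2 lay above replicate 1 for all 13 of these genes, and above both 36 h libraries for 9 of them. The same median was 0.548 and 0.296% in the 18 h libraries, 0.276 and 0.4496% in the 6 h libraries, and 0.0148 and 0.00741% in the libraries titled 0hAPF, which the study describes as larval stage L3. The choice of genes capped their 18 h and 36 h levels, so those libraries are no reference for the reads at 24 h. Where the low reads at 24 h came from was not tested, and fold changes of genes that were nearly silent at 24 h are therefore given beside the value of each library. At 44 h the replicates stood apart in muscle genes, which are described on their own.

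Of 8469 genes tested, 1688 rose to 44 h and 1241 fell, which is 19.9 and 14.7% of the genes tested. Counts of rises and falls in the gene lists below are to be read against these shares. Calls required a 2-fold change and, in the quasi-likelihood test of edgeR, an adjusted p-value below 0.05. This split rests on the scaling: with library size alone 1089 genes rose and 3105 fell, and with the deposited RPKM values 1027 rose and 1652 fell. The median log2 fold change over all genes moved from -0.00 to -0.74 with library size alone and to -0.33 with RPKM, and list medians below are to be read against the first of these values unless another scaling is named.

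Most of these changes had neither a peak nor a dip of at least 2-fold at 36 h. Among the genes that rose, 95 had a peak at 36 h of at least 2-fold above both timepoints and 55 a dip of that size below both, and among those that fell the numbers were 37 and 38. After these, the muscle list and genes with overlapping replicates were set aside, 1510 genes (17.8% of those tested) remained as lasting rises and 1161 (13.7%) as lasting falls. Lasting rises reached further: 643 of them were at least 8-fold and 160 at least 100-fold in mean CPM, whereas 185 lasting falls were at least 8-fold and 30 at least 100-fold. The lasting rises took 55.4 and 54.6% of all reads on genes at 44 h, against 7.70 and 7.25% at 24 h. The lasting falls took 2.95 and 3.11% of reads at 44 h, against 27.1 and 24.5% at 24 h. These shares follow from how the genes were chosen and describe how much of the messenger RNA turned over.

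**Figure D1:**
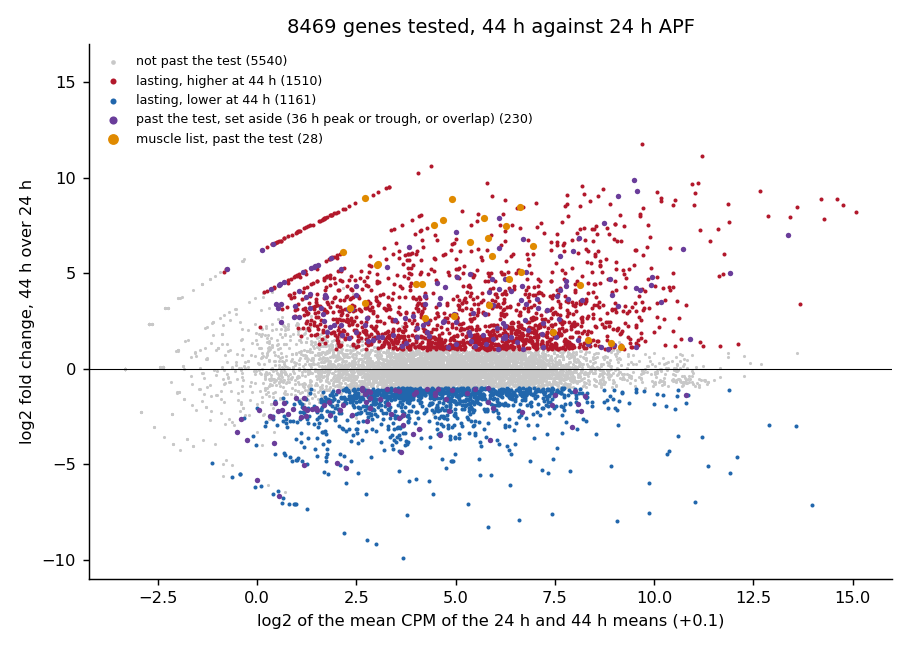
Each point is 1 of the 8469 genes tested, with the log2 of its mean CPM over 24 h and 44 h on the x axis and its fitted log2 fold change of 44 h over 24 h on the y axis. The 1510 lasting rises (red) reached larger changes than the 1161 lasting falls (blue), 230 genes past the test were set aside for a 36 h peak or dip or for overlapping replicates (purple), and 28 muscle genes past the test are orange.

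At 36 h, the lasting rises had completed a median of 55.2% of their 24 h to 44 h log2 change (quartiles 28.7 and 80.1%), and the lasting falls a median of 60.02% (quartiles 29.9 and 89.4%). Of the rises, 278 had completed at least 90% and 185 less than 10% by 36 h. Among the falls, 282 had completed at least 90% and 161 less than 10%. On its own the interval between 24 h and 36 h passed the test for 774 of the lasting rises and 511 of the lasting falls, where 15.3 and 10.1% of all genes tested rose and fell. The interval between 36 h and 44 h passed it for 642 of the rises and 342 of the falls, where 10.5 and 9.38% of all genes tested rose and fell. The intervals share libraries with the whole comparison, so these counts describe when the change took place.

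**Figure D2:**
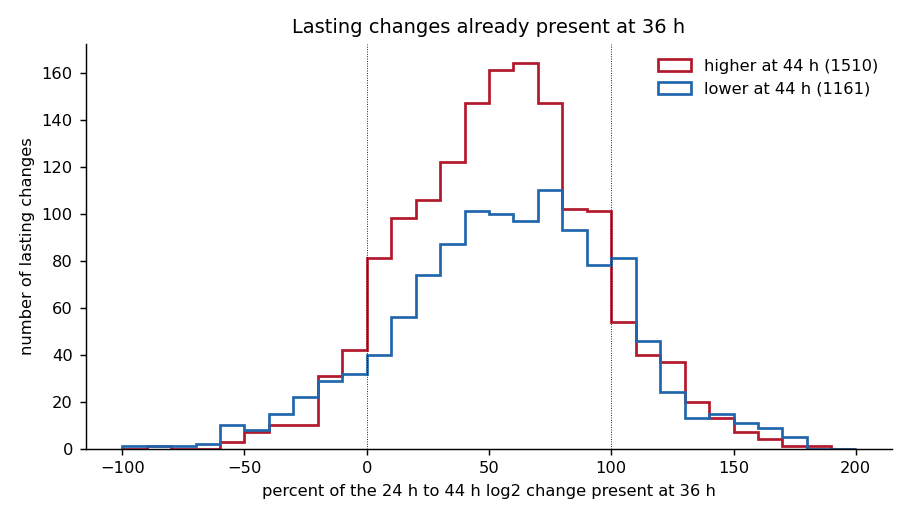
The x axis is the percent of the log2 change between 24 h and 44 h that was present at 36 h, and the y axis the number of lasting changes in each bin of 10 points. Rises (red, 1510 genes) and falls (blue, 1161 genes) both centre between 0 and 100%, with medians of 55.2 and 60.02%.

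The 12 largest lasting rises were of genes with at most 199.4 CPM in either 24 h library. *CG3108* had 4098 and 5386 CPM at 44 h, against 0.902 and 5.1 at 24 h (log2 fold change 11.16 ± 0.93 (SE), adjusted p = 1.8e-06). *CG14625* had 1148 and 2189.7 CPM at 44 h, against 0 and 2.04 at 24 h (log2 fold change 11.78 ± 0.98 (SE), adjusted p = 1.8e-06). *CG42331* had 11979 and 13950.5 CPM at 44 h, against 2.7 and 43.8 at 24 h (log2 fold change 9.30 ± 1.17 (SE), adjusted p = 4.9e-05). At 36 h these genes were at 2.94 and 5, 0.294 and 2.5 and 33 and 21.7 CPM, so their rise came after that timepoint. *Drip*, which encodes an aquaporin water channel, had 0.773 and 2.55 CPM at 24 h, 9.71 and 5 CPM at 36 h and 931 and 732 CPM at 44 h. *CG42237* had 2.06 and 10.2 CPM at 24 h, 143 and 117 CPM at 36 h and 2389 and 2256 CPM at 44 h. *CG15080* had 5.15 and 10.2 CPM at 24 h, 244 and 198 CPM at 36 h and 4536 and 3792 CPM at 44 h. The last pair had already risen in part by 36 h, and *CG14770* and *CG32354*, which complete the group outside the Osiris family, followed, with 1572 and 2759.9 CPM at 44 h, against 1.03 and 9.18 at 24 h for *CG14770* and 25553 and 24372 CPM at 44 h, against 26.1 and 119.8 at 24 h for *CG32354*. Without replicate 2 of 24 h the log2 fold change was 12.32 for *CG3108*, 16.01 for *CG14625* and 12.21 for *CG42331*, and without replicate 1 of 24 h it was 9.85, 9.66 and 8.21, so that the size of these rises rests on the few reads at 24 h. Of the 12 largest rises, 4 belong to the Osiris family. On the opposite strand, the annotation has *CG42699* over *CG3108*, *CG5805* over *CG42331*, *CG7763* over *Drip*, *CG32638* over *CG42237* and *Exo70* over *CG32354*, and the strand setting of the counting is not given in the sources used here.

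The largest lasting falls included some of the most abundant messages of 24 h. *bnb* (*bangles and beads*) had 231 and 221 CPM at 44 h, against 42077 and 21517 at 24 h (log2 fold change -7.13 ± 0.44 (SE), adjusted p = 2.5e-07). *CG13053* had 9.25 and 10.3 CPM at 44 h, against 1432 and 2267 at 24 h. *CG34247* had 33 and 33.4 CPM at 44 h, against 3402 and 4926 at 24 h. *CG15905* had 4.51 and 3.84 CPM at 44 h, against 1033 and 1087 at 24 h (log2 fold change -7.98 ± 0.66 (SE), adjusted p = 1.7e-06). That both 44 h libraries lay below both 24 h libraries in these genes follows from the definition of a lasting fall. At 36 h, 50.9% of the log2 change of *bnb* and 66.2% of that of *CG15905* was present. *CG13064* had 319 and 368 CPM at 24 h, 232 and 192 CPM at 36 h and 1.19 and 2.23 CPM at 44 h, so that 9.5% of its log2 change was present at 36 h and the fall came after that timepoint. *Obp99a*, an odorant-binding protein gene, had 0.949 and 0.607 CPM at 44 h, against 142 and 242 at 24 h. *CG4576*, with 0 reads in 1 of the 44 h libraries, had 0 and 0.607 CPM at 44 h, against 117 and 106 at 24 h. *CG14915* had 0.475 and 0.607 CPM at 44 h, against 73.3 and 83.1 at 24 h. *CG15556* had no read in either library at 44 h or at 36 h and 25.8 and 25 CPM at 24 h, so that it was at least 35.6-fold lower at 44 h when set against the larger floor of the 44 h libraries. *Sfp78E* had 0 and 0.202 CPM at 44 h, against 28.5 and 25.5 at 24 h. The cuticle protein genes *Cpr12A* and *Cpr72Ea* complete the 12 largest falls and are given with their family.

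At the limits of detection, 417 of the genes tested had at most 3 counts in each 24 h library and 312 had at most 3 counts in each 44 h library. *CG9517* was the most abundant at 44 h among the first outside muscle, with 0.258 and 0.51 CPM at 24 h, 38.2 and 25.5 CPM at 36 h and 153 and 152 CPM at 44 h, followed by *CG7432* with 0.258 and 0 CPM at 24 h, 0.294 and 0.278 CPM at 36 h and 117 and 126 CPM at 44 h. The message of *CG7432* had 1 count in each 36 h library, which places its onset after 36 h. In the other direction *CG13056* had 53.1 and 32.6 CPM at 24 h, 4.12 and 7.22 CPM at 36 h and 0.237 and 0.607 CPM at 44 h. *GstE5*, a glutathione transferase gene, had 33.1 and 29.1 CPM at 24 h, 15.6 and 11.7 CPM at 36 h and 0.712 and 0.405 CPM at 44 h.

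By the deposited RPKM values, the top 3 genes differed between the timepoints except for *pAbp*, the gene of the cytoplasmic poly(A)-binding protein. *pAbp* had 27712 and 37750 RPKM at 44 h, against 27411 and 23789 RPKM at 24 h. The library size behind RPKM includes unassigned reads, which were 60.2 and 46.5% of records at 44 h and 55.0 and 65.0% at 24 h. RPKM values of a gene therefore shift between libraries with that share. The order of genes within a library rests on gene lengths that were not checked. *Osi12* reached 24496 and 35883 RPKM and *Osi3* 16388 and 19088 RPKM at 44 h, against 11.05 and 153 RPKM for *Osi12* and 46.5 and 116 RPKM for *Osi3* at 24 h. *Spn43Aa*, which encodes a serpin, had 515 and 781 RPKM at 44 h, against 46005 and 33564 RPKM at 24 h. *CG13023* had 926 and 1595 RPKM at 44 h, against 18853 and 9675 RPKM at 24 h. In CPM the fall of *Spn43Aa* was -5.45 ± 0.41, adjusted p = 8.8e-07 and that of *CG13023* -2.99 ± 0.48, adjusted p = 0.00031 on the log2 scale by edgeR.

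The Osiris genes are an insect family of secreted and membrane proteins, most of them in a cluster on arm 3R, and several are known from cells that make cuticle. Of 22 members tested, 21 rose to 44 h and none fell, and in all 22 both 44 h libraries lay above both 24 h libraries, which held for 38.7% of all genes tested. The median log2 fold change of the family was 7.84. Together the family took 15.4 and 15.1% of the reads on genes at 44 h, against 0.0595 and 0.142% at 24 h, with 5.22 and 4.61% at 36 h.

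Members of the family rose at different times. *Osi3* had 114 and 357 CPM at 24 h, 17740.5 and 14778 CPM at 36 h and 75074 and 63417 CPM at 44 h. *Osi9* had 112 and 235 CPM at 24 h, 13786 and 16355 CPM at 36 h and 40382 and 38434 CPM at 44 h. *Osi12* had 8.89 and 155 CPM at 24 h, 277 and 195 CPM at 36 h and 36818 and 39115 CPM at 44 h. *Osi7* had 17.1 and 199.4 CPM at 24 h, 833 and 505 CPM at 36 h and 49202 and 51064 CPM at 44 h, so that these members were still low at 36 h when *Osi3* and *Osi9* were already abundant. Of the others, *Osi11*, with 5.15 and 6.12 CPM at 24 h, 686 and 663 CPM at 36 h and 956 and 847 CPM at 44 h, and *Osi17*, with 5.15 and 6.63 CPM at 24 h, 578 and 453 CPM at 36 h and 662 and 546 CPM at 44 h, were close to their 44 h level at 36 h. *Osi1* (1.03 and 12.7 CPM at 24 h, 4.71 and 4.16 CPM at 36 h and 3941 and 4022 CPM at 44 h) and *Osi4* (1.16 and 13.3 CPM at 24 h, 63.3 and 53.3 CPM at 36 h and 4064 and 4748 CPM at 44 h) rose later, with 1.5 and 36.9% of their log2 change present at 36 h. The test gave 8.21 ± 0.82, adjusted p = 8.3e-06 for *Osi3*, 8.91 ± 1.56, adjusted p = 0.00064 for *Osi12*, 8.89 ± 1.08, adjusted p = 3.7e-05 for *Osi7*, 9.67 ± 1.01, adjusted p = 1.1e-05 for *Osi1* and 9.72 ± 1.13, adjusted p = 2.6e-05 for *Osi4* (log2 fold change ± SE by edgeR). *Osi22* was a transient case, with 210.2 and 164 CPM at 24 h, 22349 and 16564 CPM at 36 h and 2286 and 1943 CPM at 44 h, and it was set aside with *Osi13* because of the 36 h peak. The low members *Osi10*, *Osi14*, *Osi15*, *Osi19* and *Osi20* reached at most 11.2 CPM in any of the 4 libraries. Without replicate 2 of 24 h the log2 fold change of *Osi12* was 12.06 and that of *Osi7* 11.51, and without replicate 1 of 24 h these were 7.94 and 7.97. In the same fits *Osi1* had 11.88 and 8.28 and *Osi4* had 11.86 and 8.37.

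Chitin genes rose as a group. Of 29 tested genes of chitin synthesis and assembly, 22 rose and 1 fell, with a median log2 fold change of 2.55. *Gasp*, a chitin-binding protein, had 21 and 53.5 CPM at 24 h, 301 and 229 CPM at 36 h and 8028 and 6953 CPM at 44 h (log2 fold change 7.70 ± 0.82 (SE), adjusted p = 1.3e-05). The chitinase genes *Cht7*, with 4778 and 4236 CPM at 44 h, against 32.6 and 26.5 at 24 h, and *Cht6*, with 5671 and 5049 CPM at 44 h, against 57.3 and 47.4 at 24 h, rose by 7.24 ± 0.36, adjusted p = 7.8e-08 and 6.67 ± 0.46, adjusted p = 4.6e-07. *kkv*, the chitin synthase of the epidermis, rose less, with 304 and 170.3 CPM at 24 h, 354 and 313 CPM at 36 h and 906 and 943 CPM at 44 h (log2 fold change 1.95 ± 0.31 (SE), adjusted p = 0.00034). The 1 member that fell was the chitinase gene *Cht5*, with 79.2 and 74.7 CPM at 44 h, against 319.8 and 195 at 24 h (log2 fold change -1.75 ± 0.41 (SE), adjusted p = 0.0045). By library size alone 18 members rose and 4 fell, and *Cht5* was not past glmTreat's test of a change beyond 2-fold.

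Among cuticle proteins with the chitin-binding Cpr domain, 19 of 44 tested members rose and 5 fell, and 11 rises and 4 falls were lasting. Without replicate 1 of 24 h, 12 rose. The Cpr genes took 2.27 and 2.39% of reads at 44 h, against 0.286 and 0.336% at 24 h. *Cpr76Bc* alone had 21108 and 21377 CPM at 44 h, against 144 and 186 at 24 h, and its 45 and 26.6 CPM at 36 h put it among the dips (log2 fold change 7.01 ± 0.75 (SE), adjusted p = 1.3e-05). *Cpr50Ca* had 959 and 1271 CPM at 44 h, against 3.48 and 5.61 at 24 h. *Cpr66D* had 989.9 and 1408 CPM at 44 h, against 6.31 and 7.65 at 24 h. *Cpr72Ea* went the other way, with 1707 and 1958 CPM at 24 h, 73.6 and 90.5 CPM at 36 h and 31.1 and 26.1 CPM at 44 h (log2 fold change -6.002 ± 0.73 (SE), adjusted p = 3.7e-05). *Cpr12A* had 148 and 177 CPM at 24 h, 5.88 and 4.72 CPM at 36 h and 3.56 and 1.21 CPM at 44 h (log2 fold change -6.11 ± 0.37 (SE), adjusted p = 2.4e-07). *Cpr49Ag* had no read at 44 h, against 13.4 and 4.59 CPM at 24 h, which makes it at least 12.6-fold lower there. The family thus held strong rises and strong falls side by side.

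In the smaller cuticle families (Tweedle, Ccp, Lcp, Edg and Acp65A), 7 of 23 tested members rose and none fell. *TwdlT* had 252 and 199.3 CPM at 44 h, against 5.54 and 4.59 at 24 h (log2 fold change 5.43 ± 0.66 (SE), adjusted p = 3.7e-05). *Lcp65Ad* had 135 and 51.2 CPM at 44 h, against 1.42 and 0.51 at 24 h. *Edg84A* had 31.1 and 13.4 CPM at 44 h, against 0.258 and 0 at 24 h, in both of which the 44 h replicates differed by more than 2-fold. *Edg84A* was not past the test without either 24 h replicate or without replicate 1 of 44 h, and without replicate 1 of 24 h 4 members of the families rose. These families took 0.0597 and 0.0454% of the reads at 44 h, far less than the Cpr genes.

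Zona pellucida domain proteins are laid down at the apical surface of the epidermis and shape the cuticle from outside the cell. Of 14 tested, 7 rose and 4 fell, 4 of the rises and 3 of the falls were lasting, and 5 members had a peak at 36 h. *dyl* (*dusky-like*) had 10.6 and 30.1 CPM at 24 h, 1810.0 and 1662 CPM at 36 h and 7178 and 7736 CPM at 44 h (log2 fold change 8.62 ± 0.62 (SE), adjusted p = 6.5e-07). *m* (*miniature*) had 28.2 and 50.5 CPM at 24 h, 4695 and 5176 CPM at 36 h and 6875 and 5443 CPM at 44 h, and 95.7% of its log2 change was present at 36 h. *dy* (*dusky*) had 34.6 and 53 CPM at 24 h, 7224 and 8280.0 CPM at 36 h and 3589 and 3089.7 CPM at 44 h, which made it a transient peak although 44 h was still above 24 h (log2 fold change 6.27 ± 0.58 (SE), adjusted p = 4.6e-06). *neo* peaked at 36 h also, with 614 and 329 CPM at 24 h, 2881 and 2559 CPM at 36 h and 81.4 and 120.4 CPM at 44 h. *pio* fell, with 80.0 and 80.9 CPM at 44 h, against 679.7 and 401 at 24 h (log2 fold change -2.75 ± 0.53 (SE), adjusted p = 0.0012), as did *pot*, with 241 and 257 CPM at 44 h, against 873 and 621 at 24 h (log2 fold change -1.59 ± 0.35 (SE), adjusted p = 0.0032). *dp* (*dumpy*), whose giant product anchors the wing to the surrounding cuticle, had 322 and 349 CPM at 44 h, against 807 and 475 at 24 h and did not pass the 2-fold limit (log2 fold change -0.94 ± 0.35 (SE), adjusted p = 0.047). Without replicate 2 of 24 h *dp* was past the test as a fall.

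**Figure D3:**
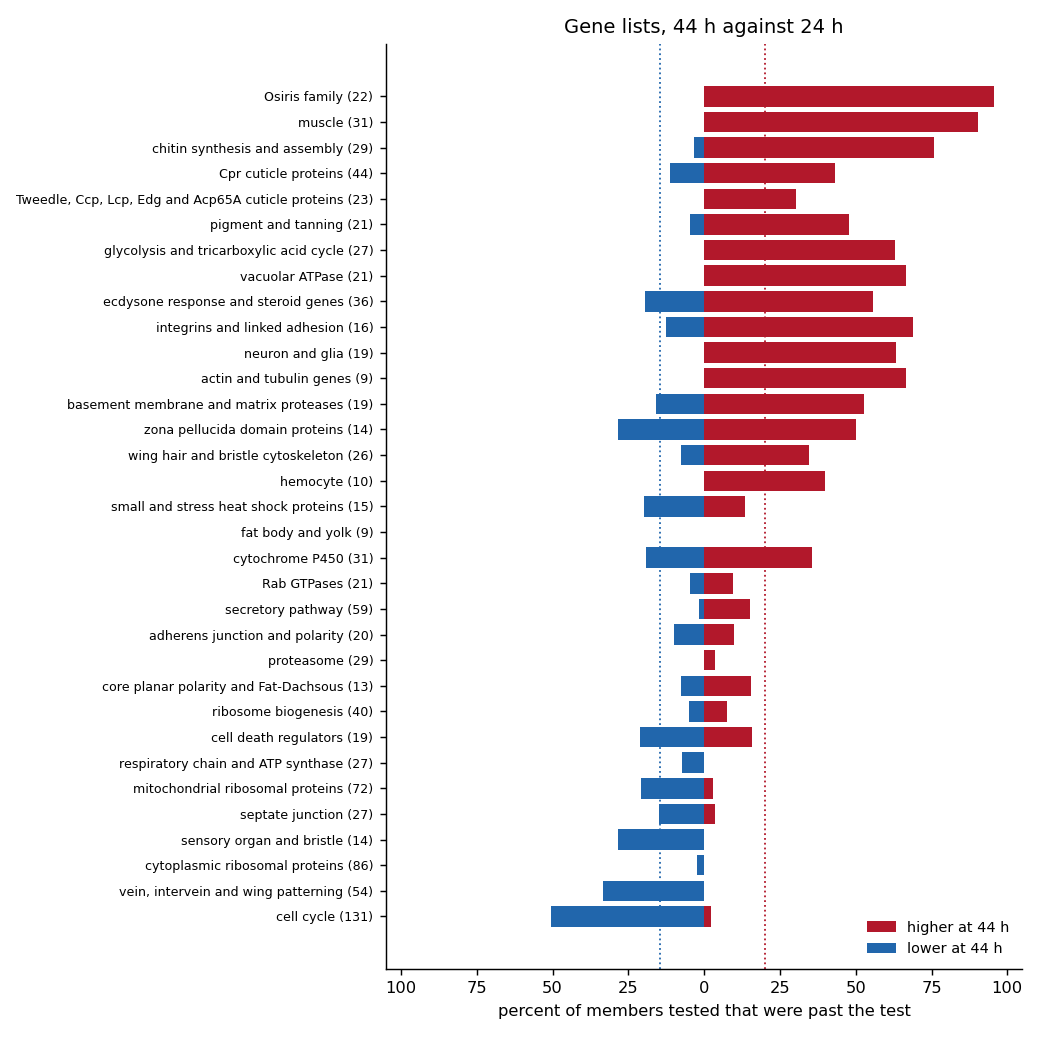
For each gene list with at least 9 members tested (number in brackets), the bar to the right gives the percent of tested members that were higher at 44 h and past the test, and the bar to the left the percent that were lower, ordered by the list's median log2 fold change. The dotted lines mark 19.9 and 14.7%, the shares over all genes tested, and the Osiris, muscle, chitin and integrin lists lie furthest above the first while the cell cycle and patterning lists lie above the second.

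Of 21 tested genes of pigment synthesis and cuticle tanning, 10 rose and 1 fell, and 8 of the rises and the fall were lasting. *laccase2* (*stw*), whose enzyme hardens the cuticle, had 95.3 and 101 CPM at 24 h, 1056 and 772 CPM at 36 h and 1765 and 1512 CPM at 44 h (log2 fold change 4.06 ± 0.28 (SE), adjusted p = 4.6e-07). *yellow-d2* had 146 and 147 CPM at 44 h, against 0.644 and 0 at 24 h. *yellow-h* had 677 and 689.6 CPM at 44 h, against 3.22 and 6.63 at 24 h. *amd*, a relative of the dopa decarboxylase gene, had 825 and 702 CPM at 44 h, against 9.53 and 12.2 at 24 h. The member that fell was *Mco1*, a multicopper oxidase gene, with 0.237 and 0.202 CPM at 44 h, against 8.76 and 13.8 at 24 h (log2 fold change -5.46 ± 0.58 (SE), adjusted p = 1.3e-05). The genes of dopamine and pigment formation were hardly read at either end. *ple* (tyrosine hydroxylase) had 3.32 and 4.86 CPM at 44 h, against 1.55 and 2.55 at 24 h. *Ddc* (dopa decarboxylase) had 2.61 and 2.23 CPM at 44 h, against 2.06 and 0 at 24 h. *e* (*ebony*) had 4.12 and 4.59 CPM at 24 h, 449 and 464 CPM at 36 h and 2.14 and 3.84 CPM at 44 h, a peak confined, among these 3 timepoints, to 36 h. *y* (*yellow*) had 0.237 and 3.64 CPM at 44 h, against 0.129 and 0 at 24 h and was not past the test (log2 fold change 3.99 ± 1.58 (SE), adjusted p = 0.059), and *b* (*black*) was at or below 1.02 CPM at both ends. Without filtering on low counts *ple* and *y* passed the test, and *y* did so also under both other filters, in the fit of the 6 libraries of 24, 36 and 44 h and without replicate 1 of 44 h. In the list 4 members fell with library size alone.

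Genes that build the wing hair and bristle shaft included 9 of 26 tested that rose and 2 that fell, against 19.9 and 14.7% of all genes tested. The list's median log2 fold change was 0.56 and turned to -0.16 with library size alone. The 9 were *f*, *sha*, *jv*, *cher*, *mwh*, *sn*, *tmod*, *Fim* and *ck*. *f* (*forked*), an actin-bundling protein, had 22.3 and 21.4 CPM at 24 h, 671 and 523 CPM at 36 h and 1868 and 1721 CPM at 44 h (log2 fold change 6.35 ± 0.35 (SE), adjusted p = 1.2e-07). *sha* (*shavenoid*) had 48.4 and 40.8 CPM at 24 h, 1039 and 817 CPM at 36 h and 1346 and 1078 CPM at 44 h. *jv* (*javelin*) had 7.34 and 10.2 CPM at 24 h, 132 and 164 CPM at 36 h and 236 and 192 CPM at 44 h, so that 91.8% and 88.3% of their log2 change was present at 36 h. The 2 that fell, *in* (*inturned*) and *fy* (*fuzzy*), are effectors of planar polarity that place the hair, with 40.8 and 21.4 CPM at 24 h, 109 and 94.9 CPM at 36 h and 13.5 and 13.4 CPM at 44 h for *in* and 12.6 and 13.4 CPM at 44 h, against 27.4 and 29.1 at 24 h for *fy*. Of 13 core planar polarity and Fat-Dachsous genes 2 rose and 1 fell, where 19.9 and 14.7% of all genes tested rose and fell. *dgo* (*diego*) had 248 and 225 CPM at 44 h, against 52 and 40.3 at 24 h (log2 fold change 2.34 ± 0.24 (SE), adjusted p = 9.6e-06). *pk* (*prickle*) had 213 and 245 CPM at 44 h, against 148 and 64.2 at 24 h (log2 fold change 1.09 ± 0.37 (SE), adjusted p = 0.029). *CG10933* (*Dlish*) had 46.7 and 45.3 CPM at 44 h, against 123 and 125 at 24 h (log2 fold change -1.43 ± 0.20 (SE), adjusted p = 0.00013). *in* was not past the test without replicate 1 of 24 h, and *pk* was not without replicate 2 of 24 h or without either 44 h replicate.

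Actin and tubulin genes rose in 6 of 9 tested members. *Act5C*, a cytoplasmic actin gene, had 2128 and 2381 CPM at 24 h, 7222 and 7065 CPM at 36 h and 23466 and 24237 CPM at 44 h (log2 fold change 3.40 ± 0.24 (SE), adjusted p = 5.1e-07), and 48.9% of its log2 change was present at 36 h. *betaTub60D* had 397 and 594 CPM at 44 h, against 192 and 90.2 at 24 h. *alphaTub85E* had 26.1 and 31.6 CPM at 44 h, against 5.67 and 8.16 at 24 h. The list took 2.31 and 2.46% of reads at 44 h, against 0.883 and 0.808% at 24 h. By library size alone 3 members rose.

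Integrins and their linkers hold the dorsal and ventral wing layers together. Of 16 tested, 11 rose and 2 fell, and with library size alone 5 rose and 2 fell. *Fit2*, a kindlin gene, had 16.1 and 15.8 CPM at 24 h, 175 and 149 CPM at 36 h and 270.5 and 245 CPM at 44 h (log2 fold change 4.01 ± 0.22 (SE), adjusted p = 1.2e-07). *by* (*blistery*), the tensin gene, had 20.5 and 15.8 CPM at 24 h, 407 and 356 CPM at 36 h and 237 and 191 CPM at 44 h. *parvin* had 30.8 and 30.6 CPM at 24 h, 129 and 123 CPM at 36 h and 144 and 128 CPM at 44 h. All of these were near their 44 h level, or above it, at 36 h. *if* (*inflated*), an integrin alpha subunit, fell after a 36 h peak, with 126 and 72.9 CPM at 24 h, 566 and 567 CPM at 36 h and 20.9 and 26.7 CPM at 44 h (log2 fold change -2.07 ± 0.32 (SE), adjusted p = 0.00027). *Vinc* (vinculin) had 12.3 and 19 CPM at 44 h, against 85.8 and 34.2 at 24 h (log2 fold change -1.97 ± 0.35 (SE), adjusted p = 0.00073).

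Basement membrane genes and matrix proteases had 10 rises and 3 falls among 19 tested, and 6 rises with library size alone. *PH4alphaEFB*, a prolyl hydroxylase gene of collagen, had 34.8 and 28 CPM at 24 h, 22.4 and 22.2 CPM at 36 h and 1267 and 1036 CPM at 44 h (log2 fold change 5.18 ± 0.24 (SE), adjusted p = 6.1e-08). *vkg*, a collagen IV chain, had 31.6 and 34.6 CPM at 44 h, against 3.22 and 3.06 at 24 h. *Ndg* (nidogen) had 31.8 and 27.9 CPM at 44 h, against 2.83 and 1.02 at 24 h. The 3 falls were of proteases. *Mmp1* had 31.3 and 31.6 CPM at 44 h, against 231 and 140.2 at 24 h (log2 fold change -2.57 ± 0.27 (SE), adjusted p = 1.2e-05). *Mmp2* had 163 and 93.3 CPM at 24 h, 225 and 187 CPM at 36 h and 40.8 and 45.9 CPM at 44 h (log2 fold change -1.58 ± 0.30 (SE), adjusted p = 0.001). *CG14869* (*AdamTS-A*) had 3.32 and 7.08 CPM at 44 h, against 21.4 and 9.18 at 24 h. *CG14869* was not past the test without replicate 1 of either timepoint.

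In the adherens junction and polarity list 2 of 20 rose and 2 fell, where 19.9 and 14.7% of all genes tested rose and fell. *crb* (*crumbs*) had 537 and 439.9 CPM at 44 h, against 227 and 144 at 24 h. *Patj* had 51.7 and 45.5 CPM at 44 h, against 28.5 and 11.7 at 24 h, while *jub* had 16.4 and 14.2 CPM at 44 h, against 55.1 and 41.3 at 24 h. *scrib* had 120.1 and 119 CPM at 44 h, against 317 and 198 at 24 h. None rose and 6 fell by library size alone, 1 rose without replicate 2 of 24 h or without replicate 1 of 44 h, and 1 fell without replicate 1 of 24 h. The call of *Patj* was lost in the first pair of these fits and that of *scrib* in the last. In the septate junction list 1 of 27 rose, *Fas3*, with 2482 and 2440.4 CPM at 44 h, against 844 and 809.7 at 24 h (log2 fold change 1.57 ± 0.22 (SE), adjusted p = 0.00012), and 4 fell, among them *bou* with 57.9 and 55.2 CPM at 44 h, against 198 and 268 at 24 h and *Lac* with 359 and 332 CPM at 44 h, against 817 and 847 at 24 h. No septate junction member rose and 12 fell by library size alone, and 2 rose and 2 fell without replicate 1 of 24 h.

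Most tested genes of vesicle acidification and of central carbon metabolism rose. The vacuolar ATPase pumps protons into the compartments of the secretory and endocytic pathways, and 14 of its 21 tested subunit genes rose and none fell, with a median log2 fold change of 1.49 (0.71 with library size alone, under which 8 rose). *Vha68-2*, which encodes a catalytic subunit, had 102 and 74.4 CPM at 24 h, 195 and 182 CPM at 36 h and 449.9 and 446 CPM at 44 h (log2 fold change 2.33 ± 0.24 (SE), adjusted p = 1.2e-05). *Vha68-1* had 56.5 and 55.4 CPM at 44 h, against 8.37 and 9.69 at 24 h. *Vha100-2* had 206 and 187 CPM at 44 h, against 45.1 and 24 at 24 h. The secretory pathway list, in contrast, had 9 rises and 1 fall among 59 tested, where 19.9 and 14.7% of all genes tested rose and fell. With library size alone the counts were 3 and 18. Among the rises were *Tango2* with 116 and 108 CPM at 44 h, against 26.8 and 24.5 at 24 h and *Srp68* with 249 and 231 CPM at 44 h, against 69.3 and 72.4 at 24 h. Of 21 tested Rab genes 2 rose, *Rab23* and *Rab14*, and 1 fell, *Rab9*, against the same shares of all genes tested. *Rab23* rose by 3.00 ± 0.35, adjusted p = 3e-05 on the log2 scale in edgeR's test, with 168 and 165 CPM at 24 h, 239.8 and 209 CPM at 36 h and 1455 and 1209 CPM at 44 h.

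Of 27 tested genes of glycolysis and the tricarboxylic acid cycle, 17 rose and none fell, with a median log2 fold change of 1.67. *Ald* (aldolase) had 75.7 and 76.5 CPM at 24 h, 146 and 201 CPM at 36 h and 2049 and 2122 CPM at 44 h (log2 fold change 4.78 ± 0.28 (SE), adjusted p = 2.1e-07). *Gapdh2* had 76.5 and 102 CPM at 24 h, 206 and 204 CPM at 36 h and 1665 and 1482 CPM at 44 h. *Pgi* had 34.8 and 24 CPM at 24 h, 54.7 and 74.7 CPM at 36 h and 448 and 519 CPM at 44 h. *ImpL3*, the lactate dehydrogenase gene, had 86.8 and 111 CPM at 44 h, against 1.67 and 2.55 at 24 h (log2 fold change 5.69 ± 0.54 (SE), adjusted p = 5.4e-06). With library size alone 13 members rose and 3 fell. These glycolytic rises came mainly between 36 h and 44 h, and the list's median was 0.51 between 24 h and 36 h and 1.18 between 36 h and 44 h. *Men*, the malic enzyme gene, had already reached 110.0 and 125 CPM at 36 h, with 151 and 159 CPM at 44 h, against 9.02 and 6.63 at 24 h. *Acon* (aconitase) had 52.9 and 125 CPM at 44 h, against 126 and 71.4 at 24 h and *kdn* (citrate synthase) 23.3 and 98.9 CPM at 44 h, against 29.1 and 25.5 at 24 h, and neither passed the test. The 44 h replicates differed more in *kdn* and *Gpo-1* (2.85 and 36.8 CPM at 44 h, against 1.16 and 1.53 at 24 h) than in *Ald* or *Gapdh2*. Whether muscle in the pools added to the levels of any of these genes was not tested. Respiratory chain and ATP synthase genes had no rise and 2 falls among 27, *sun* and *ATPsynG*. *sun* had 60.3 and 80.9 CPM at 44 h, against 144 and 214 at 24 h. *ATPsynG* had 99.9 and 134 CPM at 44 h, against 234 and 309 at 24 h. The count of falls was 11 with library size alone, 6 without replicate 1 of 24 h and 8 without replicate 2 of 44 h.

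**Figure D4:**
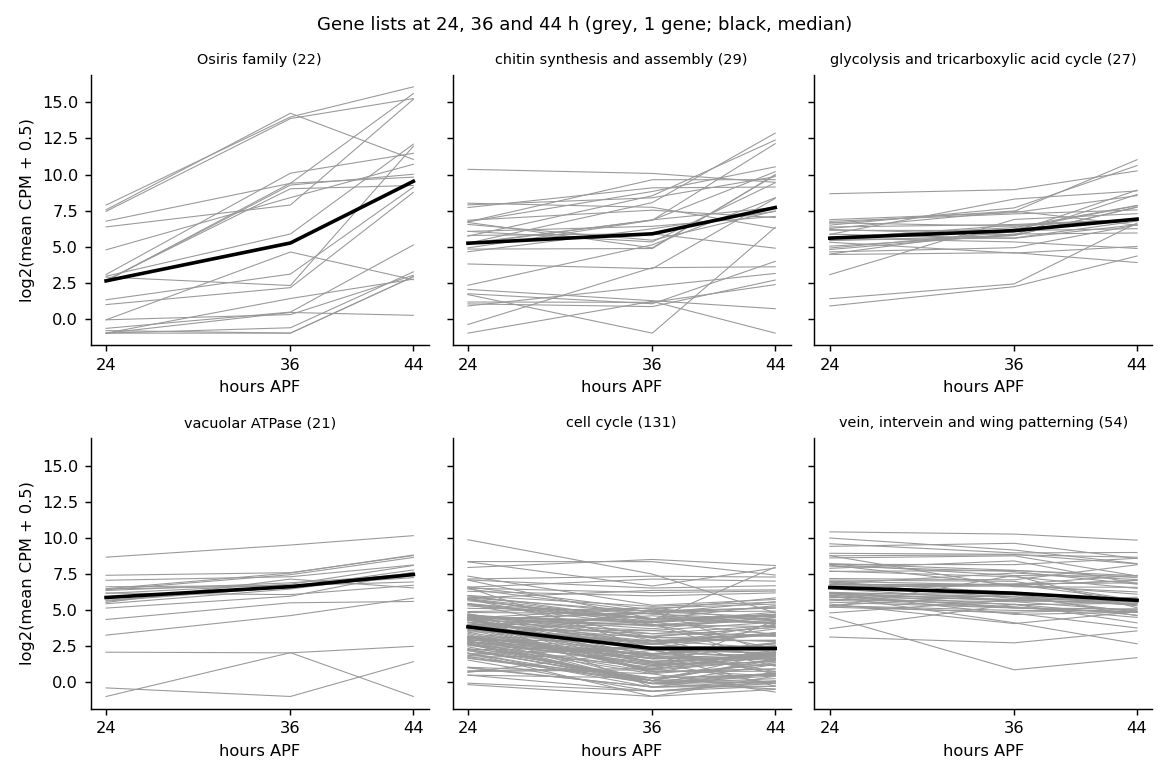
Each grey line is 1 gene of the list named above the panel, as log2 of its mean CPM plus 0.5 at 24, 36 and 44 h APF, and the black line is the median. The 22 Osiris genes climbed the furthest, the glycolysis list mainly after 36 h, and the median of the 131 cell cycle genes was lower at 36 h and 44 h than at 24 h.

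Cell cycle genes were the largest list with falls. Of 131 tested, 66 fell and 3 rose, against 14.7 and 19.9% of all genes tested. Among these, 54 falls and 3 rises were lasting. The median log2 fold change was -1.21. It was -1.50 between 24 h and 36 h and 0.34 between 36 h and 44 h. By at least 2-fold, 25 of the 131 members had their lowest level at 36 h, against 278 of all 8469 genes tested. The number that fell was 92 with library size alone. *stg* (*string*), the Cdc25 phosphatase that triggers mitosis, had 907 and 962 CPM at 24 h, 114 and 245 CPM at 36 h and 27 and 27.9 CPM at 44 h (log2 fold change -5.09 ± 0.40 (SE), adjusted p = 1.2e-06). *polo*, a mitotic kinase, had 92.4 and 94.3 CPM at 24 h, 4.12 and 4.44 CPM at 36 h and 2.61 and 4.25 CPM at 44 h (log2 fold change -4.74 ± 0.25 (SE), adjusted p = 1.1e-07). *CycA* had 128 and 139.7 CPM at 24 h, 22.7 and 18.3 CPM at 36 h and 15.4 and 17.2 CPM at 44 h. *CycB* had 37.6 and 45.9 CPM at 24 h, 7.94 and 5.83 CPM at 36 h and 4.03 and 5.06 CPM at 44 h. In each of these both 44 h libraries lay below both 24 h libraries, which held for 36.8% of all genes tested. At 36 h, 93.1% of the log2 change of *polo* but 49% of that of *stg* was present. *Klp61F*, a mitotic kinesin, had 20.5 and 26 CPM at 24 h, 0.294 and 0.278 CPM at 36 h and 0.237 and 1.82 CPM at 44 h. By its means *Klp61F* counted as a dip, although replicate 1 of 44 h lay below both 36 h libraries.

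*CycE*, *dap*, *E2f* and *rap*, which act in G1, did not pass the test in either direction. *CycE* had 8.54 and 8.5 CPM at 44 h, against 11.2 and 11.7 at 24 h (log2 fold change -0.42 ± 0.25 (SE), adjusted p = 0.18). *dap*, an inhibitor of Cyclin E-Cdk2, had 41 and 37 CPM at 44 h, against 35 and 41.8 at 24 h (log2 fold change 0.04 ± 0.25 (SE), adjusted p = 0.92). *E2f* had 165 and 177 CPM at 44 h, against 341 and 313 at 24 h (log2 fold change -0.94 ± 0.29 (SE), adjusted p = 0.018), which missed the 2-fold limit, and *rap* (*fzr*), an activator of the anaphase-promoting complex in G1, had 72.4 and 94.9 CPM at 44 h, against 67.9 and 44.4 at 24 h (log2 fold change 0.55 ± 0.26 (SE), adjusted p = 0.098). By library size alone *CycE* and *E2f* were past the test as falls. The 3 members that rose were *trbl* (*tribbles*), an inhibitor of String, with 23.8 and 19.9 CPM at 24 h, 21.5 and 16.7 CPM at 36 h and 235 and 267 CPM at 44 h (log2 fold change 3.50 ± 0.48 (SE), adjusted p = 9.4e-05), *Bub1* with 56.2 and 37.8 CPM at 44 h, against 21.5 and 17.8 at 24 h and *Nnf1b* with 12.3 and 7.89 CPM at 44 h, against 2.58 and 3.57 at 24 h. *Bub1* was not past the test without replicate 1 of 44 h, and *Nnf1b* was not without replicate 1 of 24 h.

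Most genes of translation did not pass the test. Of 86 cytoplasmic ribosomal protein genes tested, 2 fell and none rose, *RpL38* with 670.0 and 666 CPM at 44 h, against 1297 and 2192 at 24 h and *RpL41* with 2369 and 2395 CPM at 44 h, against 3904 and 6431 at 24 h, and the median log2 fold change was -0.58. The number that fell was 63 with library size alone, 51 with RPKM, 10 without replicate 1 of 24 h and none without replicate 2 of 24 h. *RpL41* was not past the test without either 44 h replicate. As a share of all reads on genes the list held 7.12 and 7.76% at 44 h, against 15.01 and 19.5% at 24 h. Of 72 mitochondrial ribosomal protein genes, 15 fell and 2 rose, and 9 fell without replicate 2 of 24 h and 7 without replicate 1 of 44 h. Among 40 genes of ribosome biogenesis 2 fell and 3 rose, and among 29 proteasome genes none fell and 1 rose, *Rpt3R*, with 5.22 and 7.89 CPM at 44 h, against 0.902 and 0.51 at 24 h. Over all genes tested, 14.7% fell and 19.9% rose. By library size alone 39 mitochondrial ribosomal protein genes, 16 ribosome biogenesis genes and 11 proteasome genes fell. No ribosome biogenesis gene fell without replicate 2 of 24 h.

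Patterning genes that passed the test were all falls, where 14.7% of all genes tested fell and 19.9% rose. Of 54 tested genes of vein, intervein and wing patterning, 18 fell and none rose, with a median log2 fold change of -0.74. With library size alone 41 fell, and without replicate 1 of 24 h 10 fell and 1 rose. *brk* (*brinker*), a repressor of Dpp targets, had 63 and 61.7 CPM at 24 h, 20.01 and 13.6 CPM at 36 h and 5.93 and 5.67 CPM at 44 h (log2 fold change -3.42 ± 0.30 (SE), adjusted p = 3.1e-06). *ci* (*cubitus interruptus*), the transcription factor of Hedgehog signalling, had 424 and 446 CPM at 24 h, 110.3 and 83.8 CPM at 36 h and 102 and 86.6 CPM at 44 h (log2 fold change -2.20 ± 0.23 (SE), adjusted p = 1.2e-05). *net*, an intervein gene, had 18.8 and 26.5 CPM at 24 h, 1.77 and 0.833 CPM at 36 h and 1.42 and 4.05 CPM at 44 h. By its means *net* counted as a dip, but its 36 h and 44 h libraries overlapped, so the dip rests on replicate 2 of 44 h. The wing selector gene *sd* (*scalloped*) had 1029 and 1002 CPM at 24 h, 537 and 602 CPM at 36 h and 299.9 and 293 CPM at 44 h. *nub* (*nubbin*) had 255.3 and 157 CPM at 24 h, 173 and 141 CPM at 36 h and 96.3 and 83 CPM at 44 h. The proneural genes *sc* (*scute*) and *ac* (*achaete*), which start sensory organ formation, had 0.949 and 0.405 CPM at 44 h, against 39 and 40.3 at 24 h for *sc* and 0.712 and 0.202 CPM at 44 h, against 27 and 28.6 at 24 h for *ac* (log2 fold change -5.86 ± 0.33 (SE), adjusted p = 1.7e-07, and -5.90 ± 0.49, adjusted p = 2e-06, by edgeR). In the sensory organ and bristle list 4 of 14 members fell and none rose, while without replicate 1 of 24 h 2 rose. On the opposite strand the annotation has *CG32816* over *sc*, *ac* and *y*.

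Ecdysone response genes passed the test in both directions. Of 36 tested, 20 rose and 7 fell, with a median log2 fold change of 1.48. *Eip93F* (*E93*), a transcription factor of the pupal to adult programme, had 5925 and 4333 CPM at 24 h, 1074 and 1566 CPM at 36 h and 150.2 and 147 CPM at 44 h (log2 fold change -5.11 ± 0.50 (SE), adjusted p = 6.5e-06). *ImpE2* had 13923 and 13106 CPM at 24 h, 3661 and 3775 CPM at 36 h and 1800.1 and 1648 CPM at 44 h (log2 fold change -2.97 ± 0.45 (SE), adjusted p = 0.0002). *crol* (*crooked legs*) had 482 and 295 CPM at 24 h, 378 and 459.9 CPM at 36 h and 127 and 137 CPM at 44 h (log2 fold change -1.56 ± 0.25 (SE), adjusted p = 0.00034). *shd*, whose enzyme makes the active hormone from ecdysone, had 1.66 and 2.23 CPM at 44 h, against 11.1 and 19.4 at 24 h (log2 fold change -2.89 ± 0.57 (SE), adjusted p = 0.0014). The receptor gene *EcR* rose, with 196 and 171 CPM at 24 h, 224 and 228 CPM at 36 h and 568 and 472 CPM at 44 h (log2 fold change 1.498 ± 0.22 (SE), adjusted p = 0.00019), and its partner *usp* had 56.7 and 66.2 CPM at 44 h, against 39.8 and 26.5 at 24 h and did not reach 2-fold (log2 fold change 0.86 ± 0.23 (SE), adjusted p = 0.0094). *Cyp18a1*, whose enzyme inactivates the hormone, had 5.67 and 5.1 CPM at 24 h, 51.8 and 91 CPM at 36 h and 186 and 172 CPM at 44 h (log2 fold change 5.02 ± 0.32 (SE), adjusted p = 2.9e-07).

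The early and late response genes of the hormone differed in when they rose. *Eip74EF* had 106 and 68.8 CPM at 24 h, 21.2 and 26.9 CPM at 36 h and 1545 and 1505 CPM at 44 h, a dip at 36 h followed by the highest level of the 3 timepoints (log2 fold change 4.11 ± 0.31 (SE), adjusted p = 9.6e-07). *Eip75B* had 414 and 276 CPM at 24 h, 282 and 389 CPM at 36 h and 1263 and 1291 CPM at 44 h (log2 fold change 1.88 ± 0.46 (SE), adjusted p = 0.0057). *br* (*broad*) had 5.8 and 12.2 CPM at 24 h, 6.77 and 8.88 CPM at 36 h and 24.7 and 33.8 CPM at 44 h (log2 fold change 1.84 ± 0.45 (SE), adjusted p = 0.0057), both flat to 36 h and higher at 44 h. *Hr46* (*Hr3*) had 3.48 and 6.63 CPM at 24 h, 944 and 923 CPM at 36 h and 87.8 and 142 CPM at 44 h. *Blimp-1* had 34.4 and 20.4 CPM at 24 h, 228 and 192 CPM at 36 h and 2.61 and 2.63 CPM at 44 h, so that both peaked at 36 h, with *Hr46* ending above and *Blimp-1* below its 24 h level. *Eip78C* peaked at 36 h too, with 99.4 and 81.6 CPM at 24 h, 657 and 911 CPM at 36 h and 89 and 99.96 CPM at 44 h, and its ends could not be told apart (log2 fold change 0.06 ± 0.23 (SE), adjusted p = 0.87). *Hr4* had 90.6 and 158 CPM at 44 h, against 75.9 and 41.3 at 24 h (log2 fold change 1.06 ± 0.53 (SE), adjusted p = 0.12). *ftz-f1* had 25.2 and 14.8 CPM at 44 h, against 9.53 and 6.12 at 24 h (log2 fold change 1.25 ± 0.45 (SE), adjusted p = 0.038). *Eip75B* was not past the test without replicate 2 of 24 h (adjusted p = 0.054), nor *br* without replicate 1 of 24 h (adjusted p = 0.098), and *ftz-f1* held in 1 of the 4 fits that each left out 1 library. Without replicate 1 of 24 h *usp* was past the test. In the scaling by library size *EcR* and *ftz-f1* were not past the test, whereas *Hr4* was past it in the 4 libraries alone and without filtering on low counts. *Eip63F-1*, a calcium-binding protein gene, had 14 and 48.4 CPM at 44 h, against 0.129 and 0.51 at 24 h.

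Among 19 tested cell death genes 3 rose and 4 fell, shares near the 19.9 and 14.7% of all genes tested. *Buffy*, a Bcl-2 family gene, had 1.55 and 1.53 CPM at 24 h, 20.6 and 16.1 CPM at 36 h and 154 and 125 CPM at 44 h (log2 fold change 6.47 ± 0.29 (SE), adjusted p = 5.2e-08). *th*, which encodes the caspase inhibitor Diap1, had 989.6 and 913 CPM at 44 h, against 463 and 389 at 24 h. *Iap2*, another inhibitor gene, had 57.9 and 59.9 CPM at 44 h, against 27.2 and 17.3 at 24 h. Among those that fell are activators of cell death. *rpr* (*reaper*) had 1.42 and 1.62 CPM at 44 h, against 21.6 and 18.9 at 24 h (log2 fold change -3.72 ± 0.79 (SE), adjusted p = 0.0022). *W* (*hid*) had 37 and 33.8 CPM at 44 h, against 379.6 and 363 at 24 h (log2 fold change -3.39 ± 0.33 (SE), adjusted p = 6.5e-06). The caspase gene *Dcp-1* had 26.1 and 30.4 CPM at 44 h, against 94.3 and 118 at 24 h. *egr*, a TNF ligand gene, had 18 and 9.92 CPM at 44 h, against 48.8 and 52 at 24 h. By library size alone *Buffy* was the 1 member that rose, and 7 fell.

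Of 15 tested heat shock genes 3 fell and 2 rose, where 14.7 and 19.9% of all genes tested fell and rose. *Hsp27* had 7495 and 9192 CPM at 24 h, 1587 and 2938 CPM at 36 h and 291 and 387 CPM at 44 h (log2 fold change -4.62 ± 0.42 (SE), adjusted p = 3.5e-06). *Hsp23* had 2248 and 2806 CPM at 24 h, 87.1 and 129 CPM at 36 h and 98.7 and 153 CPM at 44 h (log2 fold change -4.33 ± 0.32 (SE), adjusted p = 7.5e-07). *Hsp67Ba* had 480.2 and 480.3 CPM at 24 h, 100.9 and 188 CPM at 36 h and 57.9 and 48 CPM at 44 h (log2 fold change -3.18 ± 0.30 (SE), adjusted p = 4.6e-06). These were the falls, and *Hsc70-5* and *l(2)efl* were the rises, with 86.4 and 148 CPM at 44 h, against 58.5 and 47.4 at 24 h and 4.75 and 5.46 CPM at 44 h, against 0.129 and 0 at 24 h. *Hsc70-5* was not past the test without replicate 2 of either timepoint. Among 31 tested cytochrome P450 genes 11 rose and 6 fell, where 19.9 and 14.7% of all genes tested rose and fell. *Cyp49a1* had 317 and 276 CPM at 44 h, against 1.93 and 2.55 at 24 h. *Cyp301a1*, known in adult cuticle formation, had 701 and 580.3 CPM at 44 h, against 7.99 and 10.2 at 24 h. *Cyp303a1*, known in bristle formation, had 39.4 and 30.6 CPM at 44 h, against 0.386 and 0 at 24 h. *Cyp9b2* fell after a 36 h peak, with 49.3 and 39.8 CPM at 24 h, 241 and 168 CPM at 36 h and 4.03 and 4.05 CPM at 44 h. *Cyp6v1* had 8.07 and 7.49 CPM at 44 h, against 47.9 and 39.3 at 24 h.

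Markers of other cell types were read beside these results, and beside the 19.9 and 14.7% of all genes tested that rose and fell. Of the neuron and glia list 12 of 19 rose and none fell (7 and 2 with library size alone), led by the channel genes *para* with 75.9 and 73.9 CPM at 44 h, against 2.7 and 6.12 at 24 h, *Rdl* with 99.4 and 91.9 CPM at 44 h, against 6.31 and 5.61 at 24 h and *Sh* with 51.2 and 63.5 CPM at 44 h, against 13.1 and 8.16 at 24 h, whereas *elav*, the general neuronal marker, had 96.8 and 79.9 CPM at 44 h, against 103 and 104 at 24 h (log2 fold change -0.23 ± 0.21 (SE), adjusted p = 0.4). The glial marker *repo* was at 5.22 and 5.87 CPM at 44 h, against 3.09 and 3.06 CPM at 24 h. In the hemocyte list 4 of 10 rose, but 2 without replicate 1 of 24 h and 1 without replicate 1 of 44 h, and *Hml* had 0 and 0.405 CPM at 44 h, against 0.773 and 1.53 at 24 h. The 8 fat body markers had a summed level of 195 and 123 CPM at 44 h, against 159.8 and 81.6 CPM at 24 h, and none of the 9 fat body and yolk genes tested passed the test. Of the tracheal genes *stumps* rose, with 19 and 16.6 CPM at 44 h, against 3.22 and 3.06 at 24 h, and *trh* fell, with 31.8 and 31.6 CPM at 44 h, against 129 and 71.4 at 24 h. *roX1*, a noncoding RNA of male cells, had 7.59 and 5.67 CPM at 44 h, against 17.9 and 54.6 at 24 h (log2 fold change -2.36 ± 1.11 (SE), adjusted p = 0.099), and whether the pools differed in their share of male animals was not tested.

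Muscle genes are described apart because the 44 h replicates did not match in them. Of 31 tested, 28 rose to 44 h and none fell, and at 44 h replicate 2 exceeded replicate 1 for 28 of them, by at least 2-fold for 19. The median log2 difference between the 44 h replicates was 1.53 over this list and -0.02 over all genes tested, while between the 24 h replicates it was 0 over the list. The list's summed share of reads was 0.275 and 0.502% at 44 h, against 0.228 and 0.215% at 24 h, a sum that is dominated by genes such as *Tm1* (776 and 844 CPM at 44 h, against 895 and 932 at 24 h) that epidermal cells also express.

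*Mhc*, the muscle myosin heavy chain gene, had 0.258 and 1.53 CPM at 24 h, 19.4 and 37.2 CPM at 36 h and 73.6 and 321 CPM at 44 h (log2 fold change 8.46 ± 0.93 (SE), adjusted p = 1.7e-05). *Act88F*, the flight muscle actin gene, had 6.96 and 3.57 CPM at 24 h, 24.7 and 74.1 CPM at 36 h and 33.7 and 354 CPM at 44 h. *Act79B* had 0.773 and 1.02 CPM at 24 h, 20.3 and 3.89 CPM at 36 h and 42 and 262 CPM at 44 h. *TpnC41C* had 0.129 and 0 CPM at 24 h, 5 and 0.278 CPM at 36 h and 27.3 and 93.1 CPM at 44 h. In all of these the 44 h libraries lay above the 24 h libraries without overlap, which held for 38.7% of all genes tested. However, replicate 2 of 44 h was 3.41- to 10.5-fold above replicate 1 in these genes. *Tm2* had 43.7 and 166 CPM at 44 h, against 0.386 and 0.51 at 24 h. *TpnC4* had 13.5 and 72.8 CPM at 44 h, against 0.129 and 0.51 at 24 h. *fln* (*flightin*) had 4.51 and 26.5 CPM at 44 h, against 0.129 and 1.02 at 24 h. By contrast *sls* had 761 and 815 CPM at 44 h, against 392 and 333.97 at 24 h. *Msp-300* had 670.3 and 719 CPM at 44 h, against 303 and 235 at 24 h, with 44 h replicates that nearly matched.

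Muscle calls held in most fits without 1 library, but that of *fln* was lost without replicate 1 of 24 h and without replicate 2 of 44 h. Past the test were 24 members without replicate 2 of 44 h, 28 without replicate 1 of 44 h, and 25 and 26 without replicate 1 or 2 of 24 h. The median log2 fold change was 4.71 in all 4 libraries and 3.55 without replicate 2 of 44 h. The log2 fold change of *Act88F* was 5.04 ± 1.03 (SE, adjusted p = 0.0028 by edgeR) with both 44 h libraries, 2.52 without replicate 2 of 44 h and 5.91 without replicate 1 of 44 h. Over all genes, 59 of 4630 genes with at least 20 CPM at 44 h differed 2-fold or more between the 44 h replicates, 51 of them higher in replicate 2 and 15 of these on the muscle list. *Scp1*, a calcium-binding protein gene, was the most unequal of them with 0 and 0.51 CPM at 24 h, 8.53 and 0.278 CPM at 36 h and 8.3 and 213 CPM at 44 h, followed by *Act88F* and *Act79B*. The call of *Scp1* was lost without replicate 1 of 24 h, where its log2 fold change was 7.69. *Scp1* is not on the muscle list and was counted among the lasting rises. Only listed genes were set aside as muscle, so the lasting rises still hold genes with such a replicate difference. How much muscle each pool of wings carried was not tested.

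**Figure D5:**
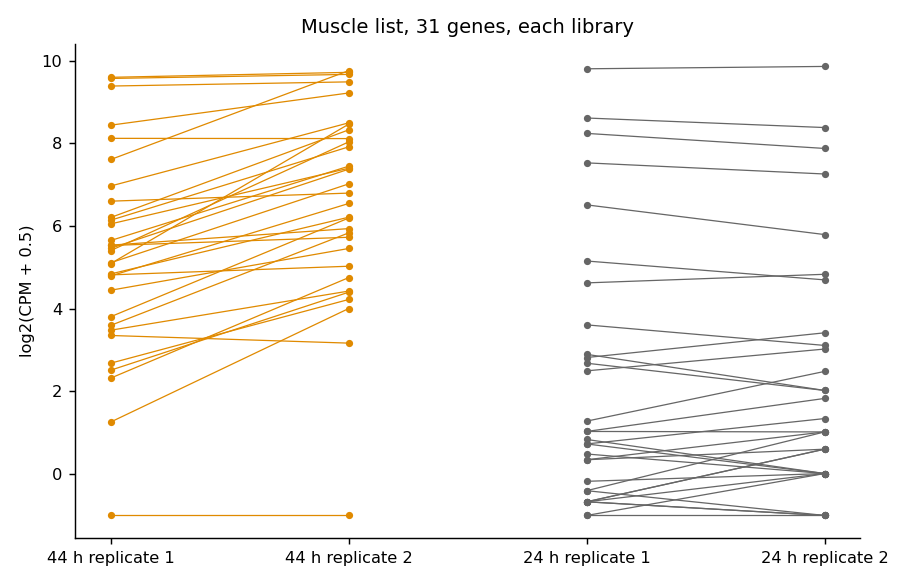
Each point is 1 of 31 muscle genes in 1 library, as log2 of its CPM plus 0.5, with lines joining the replicates of a timepoint (orange, 44 h; grey, 24 h). Replicate 2 of 44 h lies above replicate 1 for 28 genes, with a median difference of 1.53 on the log2 scale, while the grey lines have no common direction.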

How the data were processed

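RNAseq libraries of dissected wings were made at 6 timepoints with 2 replicates each. The authors aligned reads to dm3 with TopHat2 2.1.0 and counted them on genes with HTSeq 0.6.1, and the deposited counts are raw. RPKM values, also deposited, were computed by the authors in edgeR, and their library size includes unassigned reads. Of its columns, 2 matched no sample and were left out. Lines for unassigned reads, 46.5 to 65.02% of the records in the 4 libraries, were left out.

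Counts were analysed with R 4.3.3, edgeR 4.0.16 (TMM, quasi-likelihood test over 12 libraries, Benjamini-Hochberg adjustment), limma 3.58.1 and DESeq2 1.42.0. The 8469 of 15240 genes with a log2 CPM above 2 (prior count 2) in at least 1 library were tested. SE is the log2 fold change over the square root of F. A change was lasting when it was past the test, both 44 h libraries lay on the same side of both 24 h libraries, and the 36 h mean was not 2-fold above or below both. Genes named are the 12 largest lasting rises and falls with at least 20 CPM, up to 3 in each direction for each of 36 gene lists, fixed genes of ecdysone response, cell cycle, cuticle and cell types, genes with at most 3 counts at 1 timepoint, the 3 most abundant per length, and the 3 most unequal at 44 h. Other genes were named after their values were seen, such as further members of the Osiris, muscle, glycolysis and patterning lists. The members and lists were chosen with earlier results of these data known. Symbols are those of the files, and 14979 of 15240 were matched to BDGP6 identifiers. The BDGP6 coordinates were used to find overlapping genes and not to count reads. A gene on the opposite strand overlaps 38.4% of the named genes past the test and 42.9% of all genes tested. Alternatives were other scalings, filters, tools and sets of libraries. The edgeR contrast was run on simulated counts in which few genes changed, as many up as down. The sorting by 36 h, the muscle list and a shift in composition like that at 44 h were not simulated.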

Additional observations from a re-analysis of the deposited data

How the results depend on the processing

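The number of rises past the test lay between 1541 and 1597 when each library was left out, that of falls between 1037 and 1182, that of lasting rises between 1384 and 1448, that of lasting falls between 982 and 1118, and the members of gene lists past the test numbered 373 to 387, against 414 in all libraries. With library size alone, 1089 genes rose and 3105 fell, with 913 lasting rises and 2995 lasting falls. With the deposited RPKM values 1027 rose, 878 of them lasting. Under glmTreat, which tests against a 2-fold change, 556 fell, 522 of them lasting. Under the other alternatives these counts stayed within 1.5-fold, including DESeq2's Wald test (1695 rises and 1088 falls) and the stricter rules for 36 h (1225 lasting rises and 846 lasting falls with any 36 h mean outside the range set aside). These are net counts, which do not show that the same genes were called each time. Among all genes past the test, 4 changed sign without replicate 1 of 24 h and 1 without replicate 2 of 44 h. No named gene that was past the test changed direction in any alternative, while *Eip78C*, *dap*, *rap* and *b*, which were not past it, changed sign in 16 values. Of 3208 values, 3060 stayed on their side of the threshold, 125 lost the call and 23 gained it. The replicate numbers did not pair the libraries (correlation of replicate differences between 44 h and 24 h -0.04), and a replicate block gave 1724 rises and 1228 falls in the 12 libraries and 1798 and 1268 in the 4 libraries alone. Depth limits genes near 1.53 CPM, the floor of replicate 2 of 24 h.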
